A study of Homo sapiens with 19 samples.

Results

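The integrated stress response genes followed here are DDIT3, ATF3, ATF4, TRIB3, CHAC1, ASNS, SESN2, PPP1R15A, GDF15 and DDIT4. They were chosen by name, matched by Ensembl identifier, and all 10 were found among the 32732 identifiers listed in every orbital-shaker matrix and among the 58676 listed in every ultra-low-attachment matrix. They were measured by droplet single-cell RNA sequencing (10x Genomics 3′ version 3 chemistry) in human liver organoids grown from W01, a wild-type pluripotent human line that WiCell distributes.

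The 19 libraries fall into 9 groups, all from that one unmodified line. Organoids in ultra-low attachment (ULA) plates were untreated and sampled on day 21 (n = 3) and on day 34 (n = 2). The orbital-shaker (OS) organoids, all taken on day 25, make up 7 groups of 2: without treatment, TGFB1 at 10 ng/ml (the growth factor TGF-β1), PA at 500 µM, OA at 500 µM, and a separate control for each agent (Control_TGFB1, Control_PA and Control_OA). The abbreviations PA and OA are not spelled out in the labels. TGFB1 and PA were given for 5 days after 20 days of culture. OA is named in the sample titles and treatment tags but not in the protocols. Before dissociation ended, the day 34 ULA organoids and all OS organoids were washed once more and kept 10 minutes longer in trypsin than those of day 21. No label says whether libraries of a group came from separate cultures, so the p-values measure the spread between these libraries, which may be technical.

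In the integrated stress response, kinases that sense unfolded protein in the endoplasmic reticulum, amino acid shortage, double-stranded RNA or haem deficiency phosphorylate the initiation factor eIF2. Global translation then falls while translation of ATF4, a transcription factor, rises, and ATF4 raises transcription of DDIT3, ATF3 and enzymes of amino acid supply. In liver the pathway is known for its response to lipid overload, secretory load and nutrient shortage. Because ATF4 is controlled largely at translation, its mRNA need not follow its activity.

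The members fall into 5 roles. ATF4, ATF3 and DDIT3 (the protein CHOP) are transcription factors. TRIB3, a pseudokinase that restrains ATF4 and CHOP, and PPP1R15A (GADD34), which directs a phosphatase to eIF2, are feedback inhibitors. CHAC1, which degrades glutathione, and ASNS, asparagine synthetase, are enzymes. SESN2 and DDIT4 (REDD1) restrain mTORC1, and GDF15 is a secreted stress cytokine. In GRCh38 (GENCODE v44) the genes lie at chr12:57516588-57521737 (DDIT3, minus strand), chr1:212565334-212620777 (ATF3, plus), chr22:39519695-39522683 (ATF4, plus), chr20:362835-397559 (TRIB3, plus), chr15:40952962-40956512 (CHAC1, plus), chr7:97851677-97872542 (ASNS, minus), chr1:28259518-28282491 (SESN2, plus), chr19:48872212-48876059 (PPP1R15A, plus), chr19:18374731-18389176 (GDF15, plus) and chr10:72273919-72276036 (DDIT4, plus).

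The binding sequences by which ATF4 and its partners reach these genes were looked for in RefSeq promoter windows (GRCh38.p14) of 300 bases, from 250 before to 50 after each annotated start. All 10 genes had a window, 16 windows in all. The C/EBP-ATF element, searched as TGATGNAA on both strands, lay in 3.62% of all 35116 windows and in those of ATF3, ASNS and CHAC1. The cAMP response element, TGACGTCA, lay in 1.85% of all windows and in that of PPP1R15A. The ER stress element, CCAAT and CCACG with any 9 bases between them, lay in 0.0769% of all windows and in none of the members'. The 4 matches are shown on the gene's strand, 5′ to 3′, with the matched bases in capitals and 11 bases on each side, because 3 of the 4 genes (ATF3, ASNS, CHAC1) are among those that moved in the comparisons that follow. In CHAC1 the element is on the opposite strand, so the capitals are its reverse complement. A match is a description of the letters and not a measured binding site.
ATF3, chr1:212565205-212565234, positions -191 to -184 from the start: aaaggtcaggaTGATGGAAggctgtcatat
ASNS, chr7:97872458-97872487, positions -68 to -61: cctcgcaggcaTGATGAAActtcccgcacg
CHAC1, chr15:40953251-40953280, positions -209 to -202: ctcccctgccgTTGCATCActcctgccagg
PPP1R15A, chr19:48872352-48872381, positions -58 to -51: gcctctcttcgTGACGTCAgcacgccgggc

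Between 3089 and 12427 cells were kept per library, with 6880807 (Control_PA replicate 1) to 91184130 (ULA day 34 replicate 2) unique molecular identifiers (UMIs). Depth per cell differed within groups, from a median of 1310 UMIs in Control_TGFB1 replicate 1 to 5635 in replicate 2, and libraries of a group could occupy different clusters: cluster 0 held 65.7% of cells of Control_TGFB1 replicate 1 and cluster 2 held 63.0% of replicate 2. Any pair of libraries shared at most 43 cell barcodes. Against the organoids' label, mean ALB (albumin, the defining hepatocyte gene) was 0.17 CPM (UMIs of the gene per 1000000 UMIs of the library) on ULA day 34 and 0.12 CPM with TGFB1, 4.72 CPM on ULA day 21, and 494 CPM with OA. The 16 hepatocyte markers together summed to between 99.96 CPM (ULA day 34 replicate 1) and 25685 CPM (OA replicate 1). Levels below are CPM of UMIs summed over the kept cells of a library, and in such sums a shift in the mix of cells cannot be told apart from a change of RNA per cell.

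**Figure D1:**
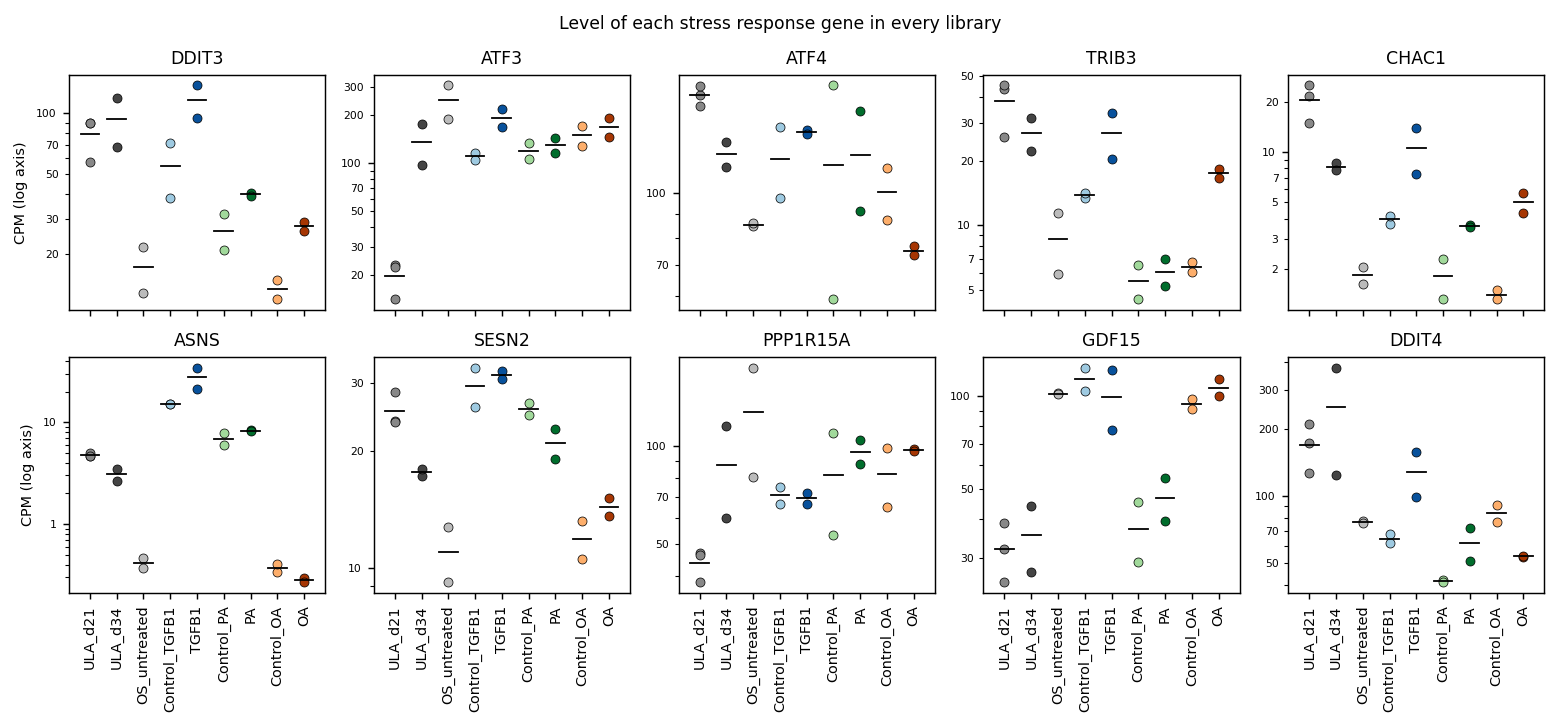
Level of each of the 10 genes (CPM, log axis) in each of the 19 libraries, with 1 point per library, placed by group. ATF3 sat between 14.1 and 23.1 CPM on ULA day 21 and at 96.9 CPM or higher in every ULA day 34 library. The group means of CHAC1 and TRIB3 were highest on ULA day 21.

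TGFB1 was compared with its own control to ask how the organoids responded to this growth factor. In these libraries 6 of the 10 genes were higher with TGFB1 and none was lower: CHAC1, DDIT3, DDIT4, ASNS, TRIB3 and ATF3, by 1.75-fold to 2.70-fold in mean CPM. ATF4, SESN2, PPP1R15A and GDF15 did not pass the test. A gene is called where edgeR's quasi-likelihood test, fitted to all 14 OS libraries with TMM normalization, gives a Benjamini-Hochberg adjusted p under 0.05 over all genes tested. Of the 19366 genes tested 22.2% were called, 10.9% higher and 11.3% lower. The median log2 fold change was 1.03 over the 10 members and -0.05 over all genes tested.

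DDIT3 stood at 37.8 and 71.6 CPM in replicates 1 and 2 of Control_TGFB1, and at 138 and 94.5 CPM with TGFB1. The groups did not overlap, and the log2 fold change was 1.25 ± 0.33 (SE; edgeR adjusted p = 0.0157). ATF3 stood at 116 and 105 CPM in the control and at 169 and 217 CPM with TGFB1, and its log2 fold change was 1.01 ± 0.24 (SE; edgeR adjusted p = 0.0086). Each TGFB1 library was above both controls, although the TGFB1 library with more DDIT3 had less ATF3. ATF4 itself, at 139 and 97.3 CPM in the control and 136 and 134 CPM with TGFB1, overlapped between the groups (log2 fold change 0.41 ± 0.35, SE; edgeR adjusted p = 0.425).

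TRIB3, the pseudokinase, stood at 13.5 and 14.1 CPM in the control and at 33.3 and 20.5 CPM with TGFB1 (log2 fold change 1.15 ± 0.32, SE; edgeR adjusted p = 0.0224). CHAC1 stood at 3.73 and 4.17 CPM in the control, from 59 and 218 UMIs, and at 13.9 and 7.40 CPM with TGFB1, from 613 and 290 UMIs (log2 fold change 1.61 ± 0.32, SE; edgeR adjusted p = 0.0031). For both genes TGFB1 replicate 1 was the highest of the 4 libraries. ASNS stood at 15.2 and 15.1 CPM in the control and at 34.1 and 21.0 CPM with TGFB1 (log2 fold change 1.06 ± 0.23, SE; edgeR adjusted p = 0.0063).

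Of the 2 genes that restrain mTORC1, only DDIT4 passed the test. It stood at 61.4 and 67.6 CPM in the control and at 157 and 98.8 CPM with TGFB1 (log2 fold change 1.18 ± 0.24, SE; edgeR adjusted p = 0.0039). SESN2 ranged from 26.0 to 32.7 CPM in the control and from 30.6 to 32.1 CPM with TGFB1 and overlapped. The other feedback inhibitor, PPP1R15A, lay at 66.4 to 75.2 CPM in the control and 66.7 to 72.0 CPM with TGFB1. GDF15 lay at 104 to 124 CPM in the control and 77.7 to 122 CPM with TGFB1 (log2 fold change -0.01 ± 0.26, SE; edgeR adjusted p = 0.994).

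One library weighs on these calls. Without TGFB1 replicate 1, which held the most DDIT3, TRIB3, CHAC1, ASNS and DDIT4, ATF3 alone stayed past the threshold (1 of 10, against 8.41% of all genes). Without Control_TGFB1 replicate 1 the count was 3, with DDIT3, TRIB3 and ASNS lost (11.5% of all genes). Without TGFB1 replicate 2, ATF3 was lost and the count was 5 (11% of all genes). All 6 log2 fold changes stayed positive in each of these fits.

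**Figure D2:**
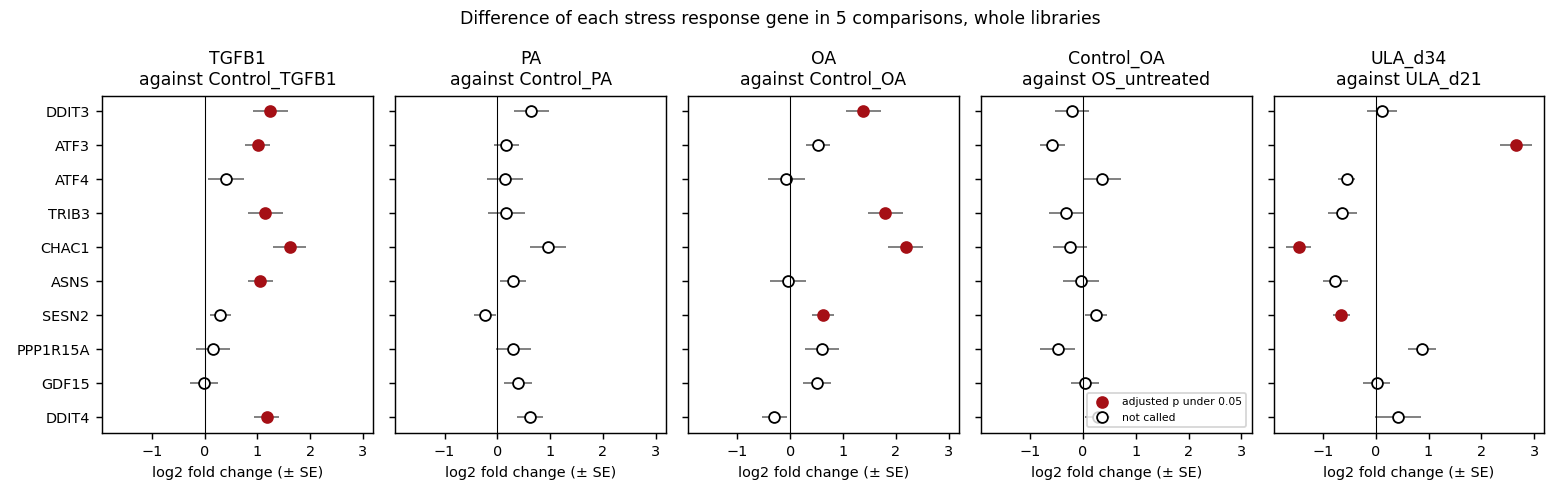
Log2 fold change of each gene with its standard error (edgeR, whole libraries), by comparison, with filled points for genes with an adjusted p under 0.05. With TGFB1 6 genes are filled, with PA none, with OA 4, and in Control_OA against untreated none. On ULA day 34 against day 21 there are 3, of which ATF3 is higher and CHAC1 and SESN2 are lower.

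Other genes of the pathway were counted in lists chosen by their known function, but with earlier results of these data known. The counts with TGFB1 stand against 22.2% of all genes called, 10.9% higher. Among 21 ATF4 targets in amino acid synthesis and transport, 11 rose with TGFB1 and 0 fell, with a median log2 fold change of 1.01. Those with the smallest adjusted p were PYCR1, which makes proline (1.39), SLC3A2 (2.11) and SLC7A5 (1.35), the chains of a large neutral amino acid transporter, and the mitochondrial folate enzyme MTHFD2 (1.59). Of 13 genes for aminoacyl-tRNA synthetases and the tRNA exporter XPOT, 7 rose and 0 fell, among them WARS1 (1.34), GARS1 (1.17), CARS1 (1.10) and YARS1 (0.88). Of 13 other known targets of ATF4 or CHOP that were tested, 7 rose and 2 fell. EIF4EBP1, a translation repressor (2.27), ADM2 (1.90) and HERPUD1 (1.79) rose, and VEGFA fell by 1.54 on the log2 scale. Among 9 further transcription factors of the response, NUPR1 (1.86) and JDP2 (0.81) rose and MAFF fell by 0.87. NUPR1 was a leading gene by fold of cluster 8. That cluster held 0.146% and 3.43% of control cells and 9.28% and 3.88% with TGFB1, and its part was not tested.

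Genes of the other endoplasmic reticulum stress branches moved as well. Of 15 targets of ATF6 and XBP1, 13 rose with TGFB1 and 0 fell (median log2 fold change 1.27), among them the secreted factor MANF (2.15), SDF2L1 (2.00), CRELD2 (1.71) and the chaperone CALR (1.66). Of 14 genes for the eIF2 kinases, eIF2 and eIF2B and their regulators, 3 rose and 0 fell. Of 12 p53 targets 3 rose and 1 fell, of 13 hypoxia genes 3 rose and 3 fell, and of 18 immediate early and dissociation genes 2 rose and 5 fell. Their summed level was 4061 to 5552 CPM in the control and 3484 to 3696 CPM with TGFB1. None of 8 housekeeping genes was called by edgeR, with 3 at an unadjusted p under 0.05.

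**Figure D3:**
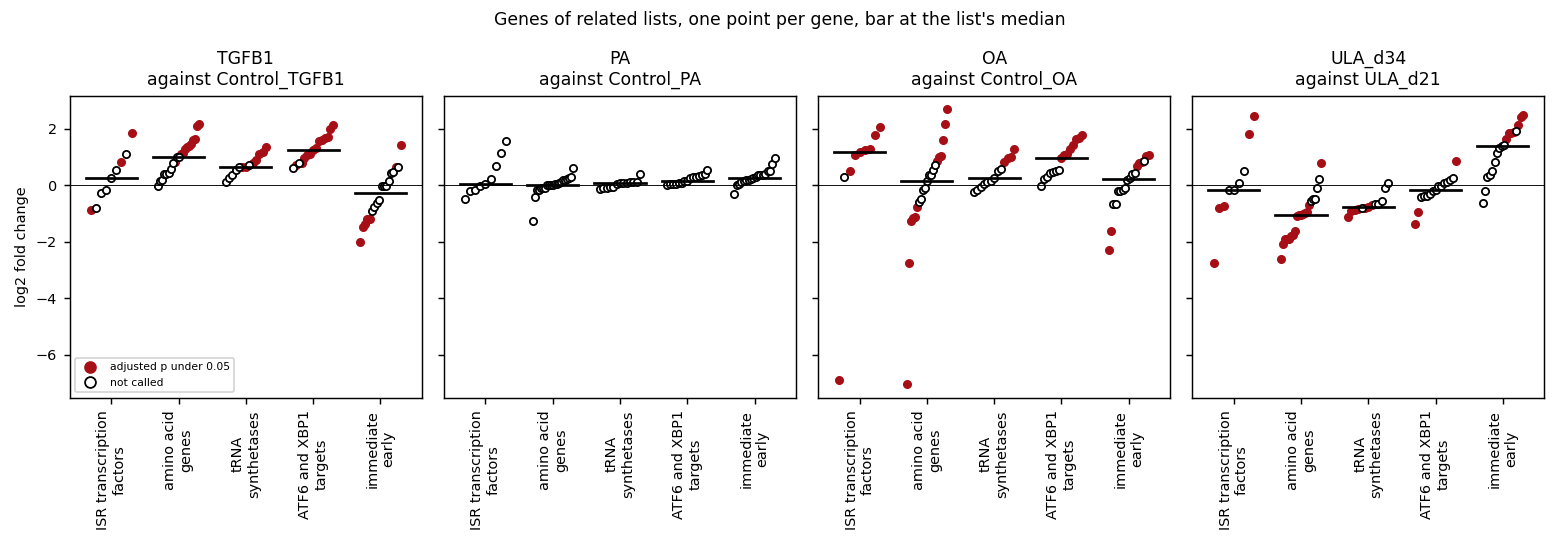
Log2 fold change (edgeR, whole libraries) of each gene in lists of related genes, by comparison, with a bar at the median of the list. Filled points are genes with an adjusted p under 0.05. Amino acid targets called are 11 higher and 0 lower with TGFB1, 6 and 6 with OA, and 1 and 15 on ULA day 34.

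The TGFB1 libraries also differed from their control in cell make-up. Cycling cells, as clusters led by cell cycle genes, made up 15.7% and 14.9% of the control and 0.483% and 0.188% with TGFB1. Markers of mesenchymal cells summed to 744 to 839 CPM in the control and 2543 to 2706 CPM with TGFB1, with none of the 13 at 0 in any of the 4 libraries. Of 13 gut epithelial markers 6 were called lower and 0 higher (sums of 802 to 833 CPM, then 169 to 182 CPM). Of 15 hepatocyte markers 8 were called lower and 1 higher, while their sum went from 3058 to 4730 CPM in the control to 4650 to 5476 CPM with TGFB1. The 9 immune markers summed to 201 to 229 CPM and then 34.0 to 45.8 CPM. Only 4 of them were tested, with 1 called higher and 1 lower, so they did not move together. The mesenchymal-like cluster, number 6, in which all 13 markers were above the mean over clusters, held 4.50% and 4.03% of control cells and 6.63% and 9.44% with TGFB1. Cluster 7, which shared mesenchymal markers but kept EPCAM (an epithelial marker) at 914 CPM, was left among the other cells. It held 0 and 0.0235% of control cells and 13.6% and 3.17% with TGFB1.

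Outside the mesenchymal-like cluster the same 6 genes were called higher, with log2 fold changes of 1.88 ± 0.34 for CHAC1, 1.22 ± 0.25 for DDIT4, 1.22 ± 0.34 for DDIT3, 1.21 ± 0.25 for ASNS, 1.19 ± 0.36 for TRIB3 and 1.10 ± 0.25 for ATF3 (SE). Of all genes tested there, 24.5% were called, 12% higher. Without TGFB1 replicate 1 the count there was 2 (9.83% of all genes) and without Control_TGFB1 replicate 1 it was 4 (13.8%). With the cycling clusters left out as well the count was 5, since TRIB3 no longer passed (1.10 ± 0.38, SE; edgeR adjusted p = 0.0506) and 22.8% of all genes did. With the other clusters low in EPCAM left out instead, and the cycling clusters kept, it was 6 (24.9% of all genes). No fit left out both. The part of the shifts among the remaining clusters was not tested.

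Inside the mesenchymal-like cluster none of the 10 genes was called with TGFB1, where 0.727% of 13619 genes were. At an unadjusted p under 0.05 there were 2, and 1979 of the 13619 genes. The difference between the 2 effects was tested directly, with the library as a block. It was -1.82 ± 0.40 for CHAC1 (log2 scale, SE; edgeR adjusted p = 0.0039), -1.43 ± 0.27 for ASNS (edgeR adjusted p = 0.00088) and -1.14 ± 0.20 for ATF3 (edgeR adjusted p = 0.00037), so the log2 fold change of these 3 was lower in the mesenchymal-like cells than in the others. Of all 17808 genes tested, 7.17% differed in effect, 4.82% in that direction. For the other 7 genes the difference did not pass the test.

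The levels show where this difference lay. In Control_TGFB1, CHAC1 stood at 19.8 and 21.7 CPM in the mesenchymal-like cells and at 2.87 and 3.16 CPM in the others. With TGFB1 it stood at 20.0 and 14.96 CPM in the mesenchymal-like cells and at 13.3 and 6.34 CPM in the others. CHAC1 was thus high in the mesenchymal-like cells of the control already. The other cells differed in make-up: ductal-like cluster 3 went from 0.25% and 2.904% of the control to 66.5% and 80.0% with TGFB1. ASNS followed the same order, at 60.6 and 38.8 CPM against 12.8 and 13.7 CPM in the control, and 38.4 and 27.2 CPM against 33.7 and 20.2 CPM with TGFB1. ATF3 differed, since control levels were alike in both kinds of cell (125 and 138 CPM against 115 and 103 CPM). With TGFB1 it stood at 104 and 111 CPM in the mesenchymal-like cells and at 175 and 232 CPM in the others. TRIB3 was also higher in the mesenchymal-like cells of the control, at 66.8 and 62.9 CPM against 10.6 and 11.3 CPM, but its difference of effects did not pass the test (-0.77 ± 0.30, SE; edgeR adjusted p = 0.149).

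**Figure D4:**
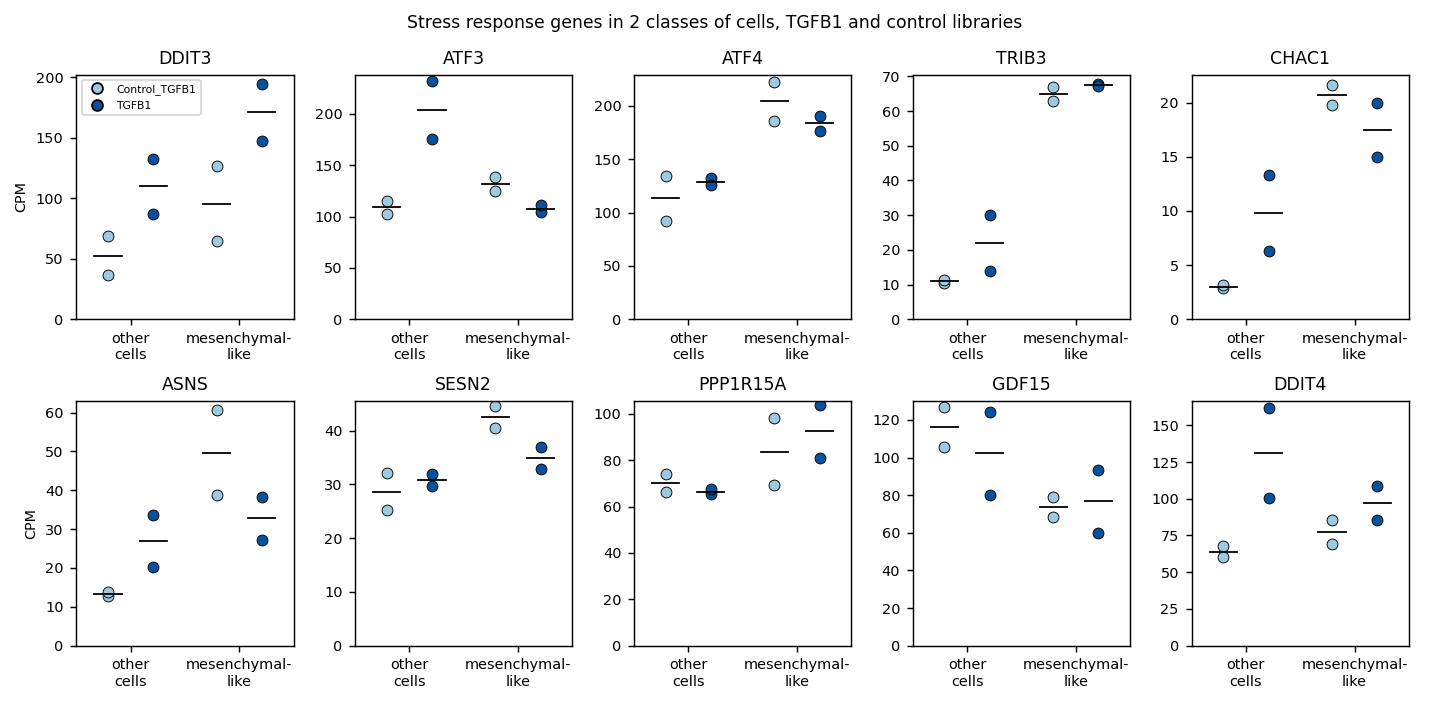
Level (CPM, linear axis) of each gene in the mesenchymal-like cells and in the other cells of the 4 libraries of the TGFB1 experiment, 1 point per library. CHAC1 and ASNS in the other cells move from 2.87 to 3.16 and 12.8 to 13.7 CPM up to 6.34 to 13.3 and 20.2 to 33.7 CPM, while the mesenchymal-like cells start high.

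Among clusters, only numbers 2 and 6 held at least 50 cells in all 4 libraries, so few like-for-like comparisons were possible. The members had been left out of the clustering. In cluster 2 (marker genes of both hepatocytes and ducts, unnamed), DDIT3 stood at 29.0 and 63.4 CPM in the control and 157 and 89.97 CPM with TGFB1. ASNS stood there at 12.8 and 10.7 CPM in the control and 23.4 and 20.9 CPM with TGFB1, the last 2 from 14 and 10 UMIs. Both genes were apart between the groups within this cluster, as were PPP1R15A (76.3 and 72.9 CPM, then 115 and 109 CPM) and GDF15 (119.5 and 130 CPM, then 231 and 157 CPM), which were not called in whole libraries. These 4 of 10 members stand against 15.3% of the 15876 genes with at least 10 UMIs there that were higher without overlap. By contrast ATF3 (161 and 84.4 CPM, then 140 and 216 CPM), DDIT4 (49.98 and 68.5 CPM, then 83.5 and 66.96 CPM), TRIB3 (10.8 and 7.49 CPM, then 18.4 and 6.28 CPM) and CHAC1 (3.38 and 1.97 CPM, then 8.35 CPM and 0), the other 4 called genes, overlapped. In TGFB1 replicate 2 the cluster gave 3 UMIs of TRIB3 and 0 of CHAC1, so the levels there are barely measured. In cluster 6 3 members were higher without overlap (DDIT3, TRIB3 and DDIT4, against 16.4% of all genes) and 3 lower (ATF3, ASNS and SESN2, against 35.9%). Ductal-like cluster 3, the main cluster with TGFB1, gave 4317 of 6078 and 2668 of 3703 DDIT3 UMIs of those libraries. DDIT3 stood there at 136 and 85.7 CPM, no higher than the 138 and 94.5 CPM of the whole libraries. In the 247 cells of that cluster in Control_TGFB1 replicate 2 all 5 of DDIT3 (174 CPM against 136 and 85.7 CPM with TGFB1), ATF3 (387 against 184 and 239 CPM), TRIB3 (68.7 against 28.3 and 12.4 CPM), CHAC1 (24.3 against 13.3 and 6.11 CPM) and ASNS (66.6 against 34.2 and 20.3 CPM) were higher than in the TGFB1 libraries. DDIT4, at 166 CPM against 174 and 102 CPM, lay between them. The genes not called in whole libraries were higher in that control library too. These were ATF4 (194 against 122 and 122 CPM), SESN2 (54.7 against 31.3 and 29.6 CPM), PPP1R15A (108 against 65.5 and 66.6 CPM) and GDF15 (188 against 135 and 81.1 CPM). Control_TGFB1 replicate 1 had only 24 cells there, so the higher levels of whole TGFB1 libraries were not seen within this cluster, in a comparison that rests on 1 control library. In cluster 8, with 292 cells in the same control library, DDIT3 stood at 70.1 CPM, then 118 and 89.6 CPM with TGFB1. TRIB3 (51.5, then 68.2 and 67.2 CPM), CHAC1 (18.6, then 29.2 and 22.4 CPM) and DDIT4 (92.8, then 125 and 101 CPM) were higher too. ASNS (66.0, then 42.2 and 26.9 CPM) and ATF3 (18.6, then 7.58 and 15.7 CPM) were lower. CHAC1 rested on 9 UMIs in that control. Among the genes not called in whole libraries, ATF4, SESN2 and PPP1R15A were higher there and GDF15 was lower. For clusters 3 and 8 the share of all genes apart in this way was not counted, so a general shift of that control library cannot be told apart.

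OA was compared with its own control, and 4 of the 10 genes were higher with OA and none lower. They were CHAC1, TRIB3, DDIT3 and SESN2, with mean CPM 3.59-fold, 2.74-fold, 2.06-fold and 1.21-fold that of the control. The transcription factor ATF4, the enzyme ASNS, GDF15, PPP1R15A, ATF3 and DDIT4 did not pass. OA moved a large share of the transcriptome, with 43.3% of the 19366 genes called, 21.7% higher and 21.6% lower, so 4 of 10 is close to the share of all genes. With only the OA and Control_OA libraries in the fit 8 of 10 were called, 7 higher and DDIT4 lower, and 60.6% of all genes tested were. The median log2 fold change was 0.57 over the members and -0.08 over all genes.

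CHAC1 stood at 1.31 and 1.49 CPM in Control_OA, from 73 and 78 UMIs, and at 5.71 and 4.34 CPM with OA (log2 fold change 2.19 ± 0.33, SE; edgeR adjusted p = 0.00017). TRIB3 stood at 6.03 and 6.71 CPM in the control and at 18.3 and 16.7 CPM with OA (log2 fold change 1.80 ± 0.33, SE; edgeR adjusted p = 0.00079). DDIT3 stood at 11.9 and 14.8 CPM in the control and at 29.1 and 26.0 CPM with OA (log2 fold change 1.39 ± 0.33, SE; edgeR adjusted p = 0.0044). In all 3 genes the 2 OA libraries lay close together and well above both controls, and each kept its call in every fit without a library.

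SESN2 stood at 10.5 and 13.2 CPM in the control and at 15.1 and 13.6 CPM with OA, so the groups were barely apart (log2 fold change 0.62 ± 0.21, SE; edgeR adjusted p = 0.0268). Its call was lost on leaving out any of the 4 libraries and with library totals in place of TMM (log2 fold change 0.27, edgeR adjusted p = 0.327). DDIT4 stood at 76.6 and 91.6 CPM in the control and at 53.2 and 54.1 CPM with OA, lower in both libraries, and under TMM the log2 fold change was -0.30 ± 0.24 (SE; edgeR adjusted p = 0.325). With library totals DDIT4 passed as lower (-0.65, edgeR adjusted p = 0.0379). Changing this scaling moved the median log2 fold change of all genes from -0.08 to -0.42 in this comparison, and the share of called genes that were higher from 50.1% to 30.6%.

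ASNS needs its annotation beside it. In the OA experiment it stood at 0.268 to 0.460 CPM, from 11 to 26 UMIs a library, and AC079781.5, a gene listed on the same strand over ASNS, stood at 3.51 to 6.41 CPM. In the ULA matrices both are listed as well, with ASNS at 2.64 to 5.02 CPM and AC079781.5 at 0.809 to 1.49 CPM. In the TGFB1 and PA matrices, which do not list AC079781.5, ASNS stood at 15.1 to 34.1 CPM and 5.96 to 8.32 CPM. Levels of ASNS are therefore compared between groups only within an experiment, and the part of the overlapping gene was not tested.

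The lists around the members were counted with OA in the same way, against the 43.3% of all genes called. Of 9 further transcription factors of the response 7 rose and 1 fell. CEBPG (2.05), MAFF (1.23) and NFE2L2 (1.18) rose, while NUPR1 fell by 6.89 on the log2 scale, from a mean of 49.04 CPM to 0.32 CPM. NUPR1 was a leading gene by fold of mesenchymal-like cluster 9. That cluster held 27.8% and 28.8% of Control_OA cells and 0.874% and 0.558% of OA cells, and its part was not tested. Of 21 amino acid targets 6 rose and 6 fell. SLC7A11, the cystine importer (2.68), PCK2 (2.15) and CTH (1.61) rose, and PYCR1 fell by 1.26. Of 13 other known targets 8 rose and 1 fell, with ADM2 (2.72), SQSTM1 (2.32), MAP1LC3B (2.03) and ERO1A (1.48) the most certain. Of 15 targets of ATF6 and XBP1 8 rose and 0 fell, among them HYOU1 (1.78), DNAJB9 (1.67), SEL1L (1.64) and HSPA5 (1.29). The kinase EIF2AK3 (PERK, 1.79) and its inhibitor DNAJC3 (1.74) were among 4 of 14 sensor and eIF2 genes that rose, with 1 that fell, and 4 of 13 tRNA synthetase genes rose. Of 12 p53 targets 3 rose and 4 fell, of 18 immediate early genes 5 rose and 2 fell, of 13 hypoxia genes 3 rose and 1 fell, and of 8 housekeeping genes 2 (TBP and ACTB) were called higher.

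The mix of cells differed between OA and its control. Mesenchymal-like cells made up 32.6% and 34.1% of Control_OA and 0.874% and 0.621% of OA, 27 and 20 cells, so no effect was fitted in them. Their 13 markers summed to 3210 to 5291 CPM in the control and 134 to 175 CPM with OA, where 1 marker was at 0 in replicate 1. Markers of gut epithelium summed to 2527 to 4792 CPM in the control and 22395 to 27141 CPM with OA. Of 15 hepatocyte markers 10 were called higher (sums of 9205 to 12764 CPM, then 24758 to 25685 CPM), and all 10 cycling markers were called lower (567 to 599.9 CPM, then 188 to 202 CPM). Outside the mesenchymal-like clusters the same 4 genes were called: CHAC1 (2.18 ± 0.35), TRIB3 (1.54 ± 0.36), DDIT3 (1.26 ± 0.34) and SESN2 (0.60 ± 0.21, log2 fold changes with SE), where 35.8% of all genes were (18.8% higher). Leaving out any 1 of the 4 libraries brought this count to 2 or 3, with 18.1% to 23.8% of all genes called. The part of the gut epithelial, hepatocyte and cycling shifts was not tested as a separate term.

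Most CHAC1 and TRIB3 UMIs in the OA libraries came from cells that the other libraries of the experiment hardly held. Cluster 7, gut epithelial-like by its markers, made up 50.9% and 37.9% of OA cells. It gave 266 of 308 and 208 of 226 CHAC1 UMIs of the 2 libraries, and 740 of 985 and 718 of 870 TRIB3 UMIs. Its cells had a median of 1.54 times the median UMIs of their library, so it held a larger share of all UMIs than of cells. There DDIT3 stood at 31.1 and 32.7 CPM and TRIB3 at 20.5 and 22.6 CPM. In the whole OA libraries DDIT3 stood at 29.1 and 26.0 CPM and TRIB3 at 18.3 and 16.7 CPM. Cluster 6, the other large cluster of the OA libraries, had 13.9 and 13.7 CPM of DDIT3 and 5.32 and 5.64 CPM of TRIB3. Both genes were thus lower in cluster 6 than in cluster 7 in each OA library.

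Of 17 clusters, 5 held at least 50 cells in all 6 libraries of the experiment. In gut epithelial-like cluster 3 DDIT3 stood at 11.4 and 13.4 CPM in Control_OA and at 46.4 and 28.3 CPM with OA, from 17 and 22 UMIs, and TRIB3 stood at 6.21 and 7.33 CPM and then 51.8 and 11.6 CPM. There both genes were higher with OA in both libraries, 2 of 10 members, where 25.3% of genes with at least 10 UMIs were higher without overlap. DDIT3 was not apart in that direction in the other 4. In cluster 0 it stood at 11.6 and 14.01 CPM and then 8.76 and 6.43 CPM, in cluster 2 at 9.31 and 10.8 CPM and then 9.87 and 11.2 CPM. In cluster 5 it stood at 14.6 and 23.0 CPM and then 20.3 and 26.5 CPM, and in cluster 11 at 9.79 and 11.4 CPM and then 10.6 and 24.5 CPM. TRIB3 was higher without overlap in cluster 2 (6.83 and 6.33 CPM, then 7.99 and 8.49 CPM; 1 of 9 members, against 31% of genes) and in cluster 5 (8.13 and 10.3 CPM, then 12.3 and 22.9 CPM; 2 of 9 with ATF3, against 28%). It was lower in cluster 0 (7.20 and 8.54 CPM, then 5.47 CPM and 0) and overlapped in cluster 11 (5.07 and 5.29 CPM, then 8.18 and 5.10 CPM). These shares of members higher without overlap lie near or under those of all genes. In the other direction 6 of 9 members were lower without overlap in cluster 0 (28.5% of genes). They were DDIT3, ATF4, TRIB3, CHAC1, GDF15 and DDIT4. The count was 4 of 9 in clusters 2 and 5 (29.8% and 30.5%), 3 of 10 in cluster 3 (31.2%) and 3 of 9 in cluster 11 (29.4%). ATF4 was lower in each of these clusters. SESN2, called higher in whole libraries, was lower in clusters 2 and 5. No test was made within a cluster.

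PA was compared with its own control, and none of the 10 genes was called, where 0.0465% of the 19366 genes tested (9 genes) were. At an unadjusted p under 0.05 there were 2 members, CHAC1 and DDIT4, and 540 of all genes, and DESeq2 called 0 as well. CHAC1 stood at 1.31 and 2.30 CPM in the control, the first from only 9 UMIs, and at 3.66 and 3.57 CPM with PA (log2 fold change 0.96 ± 0.34, SE; edgeR adjusted p = 1). DDIT4 stood at 41.9 and 41.1 CPM in the control and at 71.9 and 51.05 CPM with PA (log2 fold change 0.62 ± 0.24, SE; edgeR adjusted p = 1). DDIT3 stood at 20.9 and 31.5 CPM in the control and at 40.5 and 38.8 CPM with PA (log2 fold change 0.65 ± 0.33, SE). In each of these 3 genes, and in ASNS, both PA libraries were above both controls (4 of 10 members, against 8.38% of all genes tested), but none of the differences passed over all genes.

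The remaining genes of the set did not pass with PA either. ATF3 (107 and 133 CPM, then 116 and 143 CPM), GDF15 (29.1 and 45.6 CPM, then 39.4 and 54.6 CPM) and PPP1R15A (53.5 and 110 CPM, then 104 and 88.4 CPM) overlapped between control and PA. TRIB3 stood at 4.51 and 6.54 CPM in the control and 5.21 and 6.96 CPM with PA. SESN2 was lower in both PA libraries (22.8 and 19.1 CPM against 24.7 and 26.6 CPM), with a log2 fold change of -0.24 ± 0.21 (SE). ATF4 spanned 58.9 to 171 CPM in the 2 control libraries alone; both PA libraries (150 and 91.5 CPM) lay inside that range. The median log2 fold change was 0.30 over the members and 0.02 over all genes. In each related list edgeR called 0 genes with PA. At an unadjusted p under 0.05 there were 3 of 9 further transcription factors, 2 of 18 immediate early genes and 1 each among the other known targets, the ATF6 and XBP1 targets and the hypoxia genes. Outside the mesenchymal-like cluster edgeR called 0 members as well (0.0697% of all genes), with 2 at an unadjusted p under 0.05 among 458 of 18653 genes. Inside it the count was 0 (0.00734% of all genes), with 0 at an unadjusted p under 0.05 among 596 of 13619 genes. The effect of PA differed between the kinds of cell for 0 members by edgeR (0.0168% of all genes), with 1 at an unadjusted p under 0.05 among 793 of 17808 genes.

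OA and PA were given at the same labelled dose of 500 µM, each with its own control, so the difference between their effects was tested for all 10 genes in the same fit. It passed for TRIB3, whose log2 fold changes differed by 1.63 ± 0.47 (SE; edgeR adjusted p = 0.0275), where 20.5% of all genes tested differed, 10.2% in that direction. TRIB3 rose with OA, while with PA its libraries overlapped those of the control. The difference did not pass for SESN2 (0.86 ± 0.29, adjusted p = 0.0542), DDIT4 (-0.92 ± 0.34, adjusted p = 0.0698), CHAC1 (1.22 ± 0.47, adjusted p = 0.0814) or the other 6 genes (SE, edgeR). Those were DDIT3 (0.74), ATF3 (0.36), PPP1R15A (0.30), GDF15 (0.12), ATF4 (-0.22) and ASNS (-0.34), with adjusted p of 0.281 or more. With only the 4 groups compared in the fit, CHAC1, SESN2 and DDIT4 passed as well, a count of 4, where 26% of all genes differed. The TRIB3 call was lost on leaving out any of 6 of the 8 libraries, with adjusted p between 0.0526 and 0.182, and the experiments were listed against different gene annotations. How far the duration of OA treatment matched that of PA is not given in the labels' protocols. Cell type markers differed between the 2 effects as well. Of 13 mesenchymal markers 12 were called lower, and of 10 cycling markers 6 were. Called higher were 10 of 15 hepatocyte and 6 of 13 gut epithelial markers. Their part in the TRIB3 difference was not tested.

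Control_OA was compared with untreated OS organoids. None of the 10 genes was called by edgeR or DESeq2, where 0.573% of all genes were called by edgeR and 4.97% by DESeq2, and 1 member had an unadjusted p under 0.05, as did 2822 of 19366 genes. That was ATF3, at 307 and 189 CPM in the untreated libraries and 128 and 170 CPM in Control_OA (log2 fold change -0.58 ± 0.23, SE; edgeR adjusted p = 0.283). Outside the mesenchymal-like clusters edgeR and DESeq2 called 0 members too, where edgeR called 1.2% and DESeq2 5.93% of all genes, and 1 member, ATF3 again, had an unadjusted p under 0.05, as did 3182 of 18653 genes. PPP1R15A stood at 174 and 80.5 CPM in the untreated libraries and at 65.1 and 98.8 CPM in Control_OA, so the groups overlapped. The log2 fold changes of the 8 genes not yet named here ran from -0.31 (TRIB3) to 0.37 (ATF4), with DDIT3 at -0.21, CHAC1 at -0.25, ASNS at -0.038, GDF15 at 0.041, SESN2 at 0.24 and DDIT4 at 0.28. Because this comparison and that of OA share the Control_OA libraries, they are not independent.

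Across all OS libraries, TGFB1 replicate 1 had the highest mean of the members' centred log2(CPM + 1) levels (1.10) and TGFB1 replicate 2 the second highest (0.73), while Control_OA replicate 1 had the lowest (-0.61). The 5 other genes of at least 10 CPM whose profile over the 14 OS libraries was most like this mean were CDC37L1, TAPT1, CHMP4C, TM2D1 and KRBOX5, with a root-mean-square difference of 0.149 to 0.182. The members themselves lay farther from their own mean, from 0.387 for CHAC1, ranked 1188 among the genes compared, to 1.39 for ASNS, ranked 8341. ASNS enters this mean across experiments whose annotations differ, so the mean was also taken over the other 9 genes, a choice made after seeing the data. The TGFB1 libraries were then still the highest (0.91 and 0.58), but the lowest was Control_PA replicate 1 (-0.70), with Control_OA replicate 1 at -0.46. The 5 nearest genes were then WDR55, NR1H2, CARS1, ATP6V1C1 and KCMF1 (0.124 to 0.162), none of them among the first 5. The 9 genes lay between 0.372 (DDIT4, ranked 1590) and 0.681 (DDIT3, ranked 6414) from that mean.

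The untreated ULA organoids of day 34 were compared with those of day 21, and here the members moved in both directions. ATF3 was 6.89-fold higher in mean CPM on day 34, while CHAC1 and SESN2 were lower, at 0.396 and 0.696 of their day 21 means. Of the 22257 genes tested 15.6% were called, 8.43% higher and 7.18% lower. The day 34 organoids had the longer trypsin step and the day 21 organoids did not, so age and dissociation cannot be told apart.

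ATF3 stood at 23.0, 14.1 and 22.4 CPM on day 21 and at 176 and 96.9 CPM on day 34 (log2 fold change 2.66 ± 0.31, SE; edgeR adjusted p = 0.0032). Every OS library held at least 104.8 CPM of ATF3. The OS organoids had the longer trypsin step but also differed from ULA day 21 in culture format, day and listed genes. The part of the trypsin step was not tested. Of 18 immediate early and dissociation genes, a list in which ATF3 is not counted, 7 rose on day 34 and 0 fell, among them ZFP36 (2.50), JUN (2.13), KLF6 (1.90) and IER3 (1.85). Their sum was 1214 to 2077 CPM on day 21 and 3841 to 5602 CPM on day 34, and their part in the ATF3 result was not tested. PPP1R15A moved in the same direction, at 46.9, 38.2 and 46.4 CPM and then 116 and 60.02 CPM, but did not pass (log2 fold change 0.87 ± 0.27, SE; edgeR adjusted p = 0.0685).

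CHAC1 stood at 25.2, 21.8 and 15.03 CPM on day 21 and at 8.58 and 7.78 CPM on day 34 (log2 fold change -1.46 ± 0.24, SE; edgeR adjusted p = 0.0099). SESN2 stood at 28.3, 23.9 and 23.8 CPM and then at 17.2 and 18.0 CPM (log2 fold change -0.65 ± 0.16, SE; edgeR adjusted p = 0.0332). ATF4 (163, 154 and 170 CPM, then 129 and 114 CPM) and ASNS (4.65, 5.02 and 4.66 CPM, then 3.51 and 2.64 CPM) were also lower in both day 34 libraries without passing (edgeR adjusted p = 0.0595 and 0.0709). DDIT3, TRIB3, GDF15 and DDIT4 overlapped between the days. DDIT4, for example, stood at 375 and 124 CPM in the 2 day 34 libraries, on either side of the 127 to 210 CPM of day 21. The hypoxia genes, which were counted without DDIT4, split those libraries the same way, with sums of 2903 and 415 CPM against 486 to 792 CPM on day 21, and 1 of 13 was called higher and 0 lower. Of these calls ATF3 held in every fit without a library, CHAC1 was lost without day 21 replicate 1 (edgeR adjusted p = 0.0551) and SESN2 was lost without any of 4 libraries, day 34 replicate 2 excepted.

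Of 21 amino acid genes that ATF4 is known to control, 15 fell and 1 rose on day 34, where 7.18% of all genes fell (median log2 fold change -1.04), among them CTH (-2.60), PCK2 (-1.91), MTHFD2 (-1.91) and SLC7A11 (-1.90). Of 13 tRNA synthetase genes 7 fell and 0 rose, with CARS1 at -1.13. Of 14 other known targets 4 fell (HERPUD1, EIF4EBP1, CEBPA and FGF21) and 0 rose, of 9 further transcription factors 2 rose and 3 fell, and of 15 ATF6 and XBP1 targets 1 rose and 2 fell. Clusters led by cell cycle genes held 24.1% to 29.0% of day 21 cells and 1.02% and 0.418% of day 34 cells, and gut epithelial markers summed to 1441 to 1930 CPM and then 11.96 to 133 CPM. All 10 squamous or basal epithelial markers were called higher (sums of 11.8 to 19.4 CPM, then 688 to 1942 CPM), and 8 of 15 hepatocyte markers were called lower. The day 34 libraries also stood apart from each other: cluster 13 held 25.4% of replicate 1 and 0.0080% of replicate 2, and squamous or basal epithelial-like cluster 14 held 0.67% and 42.0%. Their part in these results was not tested.

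In the ULA libraries no cluster held at least 50 cells in all 5 libraries. Outside the clusters low in EPCAM with mesenchymal markers 4 members were called, where 19.1% of all genes tested were (10.1% higher and 8.97% lower): ATF3 higher (3.05 ± 0.43), and GDF15 (-1.48 ± 0.33, edgeR adjusted p = 0.0214), CHAC1 (-1.44 ± 0.28) and SESN2 (-0.74 ± 0.19) lower (log2 fold changes with SE). GDF15, level between the days in whole libraries, stood there at 46.5, 31.7 and 40.5 CPM on day 21 and at 9.49 and 21.1 CPM on day 34. Without day 21 replicate 1, 2 or 3 the count of 4 fell to 1, 2 and 1 (6.63%, 8.15% and 6.06% of all genes), and without either day 34 library it was 7 (26.5% and 40.6%). In the clusters left out GDF15 stood at 19.0, 17.6 and 10.995 CPM on day 21 and at 70.1 and 54.0 CPM on day 34. The clusters left out were not the same cells on the 2 days: clusters 0, 4 and 6 gave at most 35 cells in any day 34 library, and clusters 7 and 8 at most 9 in any day 21 library. No test was made among them, because cluster 8 had a neural marker, STMN2, among its leading genes by fold. Cluster 4 of this class was led by cell cycle genes and held 16.9% to 24.7% of day 21 cells.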

How the data were processed

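The deposited values are UMI counts of each gene in each cell barcode, stored as whole numbers and not normalized, per the file headers and values. The submitters' processing notes name bcl2fastq, Cell Ranger 3.0.2 and Scanpy with the build GRCh38, and the headers of the OA, Control_OA and untreated matrices name Cell Ranger 6.0.2. The matrices list 58721 genes (ULA), 33538 (TGFB1 and PA experiments) and 36601 (OA experiment).

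Cell barcodes needed 500 or more detected genes and a mitochondrial share of no more than 20%, and the counts of those kept were summed per library. OS libraries were fitted together over shared identifiers and ULA libraries separately, with edgeR 4.0.16 (R 4.3.3; filterByExpr, TMM, quasi-likelihood test, Benjamini-Hochberg adjustment over all genes tested). The test gives no standard error, so each SE is the absolute log2 fold change divided by the square root of its F statistic. CPM are over the library total of shared identifiers, and in ASNS ranges across annotations over all listed genes. The test was tried first on counts simulated with the same dispersion for every gene, which these libraries need not share. Doublets were not removed in the main results, because Scrublet's automatic threshold marked under 1% of cells in 18 libraries (12.6% in ULA day 34 replicate 2). Removing the highest scores (0.8% per 1000 barcodes) was an alternative.

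Clusters were built per experiment with scanpy 1.11.5, without the members, list genes, mitochondrial or ribosomal genes. Mesenchymal-like clusters had at least 9 of 13 fixed markers above the mean over clusters and EPCAM of at most 100 CPM, a rule set after the clusters were seen. Effects in mesenchymal-like and other cells were compared for TGFB1 and PA. They were not compared for Control_OA and ULA, where a cluster of the class had leading markers of another class.

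The members, lists and markers were chosen with earlier results of these data known. All 10 members are named in each comparison, and of each list up to 4 called genes with the smallest adjusted p. Alternatives were other normalizations, no filter, DESeq2 1.42.0, fewer samples in the fit, a replicate block, stricter cells and leaving out each library.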

Additional observations from a re-analysis of the deposited data

Results flagged for a closer look

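The TGFB1 effect differed between mesenchymal-like and other cells for 3 of the 10 genes by a direct test of the difference (edgeR, library as a block): ATF3 by -1.14 (log2 scale, adjusted p = 0.00037), ASNS by -1.43 (adjusted p = 0.00088) and CHAC1 by -1.82 (adjusted p = 0.0039). The mesenchymal-like sums are the smaller ones, from 343 to 652 cells a library. Without Control_TGFB1 replicate 2 or TGFB1 replicate 1 the count was 2 (3.18% and 4.5% of all genes), and without TGFB1 replicate 2 it was 4 (4.79%; 7.17% with every library). The effects of OA and PA, each against its own control, differed for TRIB3 by 1.63 on the log2 scale (edgeR adjusted p = 0.0275). That difference passed in 2 of the 8 fits that left out a library.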

How the results depend on the processing

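Replicate numbers were not treated as pairs in the main fits. Deviations of same-numbered libraries correlated at -0.42 (TGFB1), 0.14 (PA), 0.056 (OA), -0.60 (Control_OA and untreated) and -0.24 and -0.32 (ULA). With so few libraries a group, these values cannot exclude a pairing. With the replicate block the number of members called was 0 in place of 3 for ULA whole libraries (0 of 22257 genes in all, from 15.6%) and 1 in place of 4 outside the mesenchymal-marker clusters (3.87% of all genes, from 19.1%), 3 in place of 4 for OA outside them (33.1%, from 35.8%), and equal elsewhere. Fitting only the groups compared gave 8 for OA (from 4; 60.6% of all genes, from 43.3%) and 4 for the OA and PA difference (from 1; 26% of all genes, from 20.5%), and 5 for TGFB1 (from 6; 19.4% of all genes, from 22.2%). That difference had 2 under RLE, library totals, no filter, DESeq2 and stricter cells (17.1% to 25.8% of all genes). DESeq2 gave 6 for ULA (from 3; 20.1% of all genes, from 15.6%). Leaving out each library gave 1 to 6 for TGFB1 (8.41% to 27.7% of all genes), 3 for OA (25.8% to 32.8%), 1 to 5 for ULA (3.18% to 30.7%) and 0 to 2 for the difference (10.5% to 16.8%). Outside the mesenchymal-like cells it gave 2 to 5 (TGFB1; 9.83% to 30% of all genes), 2 to 3 (OA; 18.1% to 23.8%) and 1 to 7 (ULA; 6.06% to 40.6%), and 2 to 4 for the TGFB1 difference between kinds of cell (3.18% to 5.19%). PA and Control_OA against untreated stayed at 0. Library totals, the EPCAM-low setting and the mean without ASNS were chosen after seeing the data. With library totals 31.6% of called genes were higher for TGFB1 (TMM 48.99%), 5.10% for Control_OA against untreated (14.4%), 31.4% for the OA and PA difference (49.6%) and 66.6% for ULA (54.0%), with all-gene medians of -0.24 for TGFB1, -0.12 for Control_OA and 0.14 for ULA.

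Signs turned only for log2 fold changes that were not called. With library totals PPP1R15A (TGFB1) was -0.030, and GDF15 was -0.11 (Control_OA) and -0.15 (OA minus PA). GDF15 with TGFB1 was 0.013 without a filter, 0.015 with the replicate block, 0.038 with stricter cells and 0.0077 without doublets. Stricter cells gave ASNS 0.12 (OA) and 0.12 (Control_OA), GDF15 -0.0040 (Control_OA) and DDIT3 -0.042 (ULA). Without doublets ASNS was 0.071 (Control_OA) and GDF15 -0.016 (ULA). The block gave DDIT3 -0.11 (ULA). Leaving out each library gave ranges across 0: for TGFB1 PPP1R15A -0.025 to 0.37 and GDF15 -0.37 to 0.29, for PA ATF4 -0.38 to 1.04, TRIB3 -0.063 to 0.45 and PPP1R15A -0.064 to 0.86, and for OA ATF4 -0.17 to 0.038 and ASNS -0.14 to 0.035. For Control_OA they were DDIT3 -0.48 to 0.14, TRIB3 -0.76 to 0.31, ASNS -0.10 to 0.069, SESN2 -0.035 to 0.58, PPP1R15A -0.89 to 0.091 and GDF15 -0.099 to 0.17. For ULA they were DDIT3 -0.32 to 0.45, GDF15 -0.37 to 0.31 and DDIT4 -0.58 to 0.99. For OA minus PA they were ATF4 -1.16 to 0.31, PPP1R15A -0.30 to 0.67 and GDF15 -0.25 to 0.37. The cause of these changes was not tested. Depth limits ASNS in the OA experiment, with 11 to 26 UMIs a library, and CHAC1 in Control_PA replicate 1, with 9.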

Other observations

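NUPR1, a small stress-induced chromatin protein and a partner of the ATF4 response, moved farther than most of the 10 genes and not in a single direction. Its mean level was 14.5 CPM in Control_TGFB1 and 48.3 CPM with TGFB1 (log2 fold change 1.86 ± 0.55, SE; edgeR adjusted p = 0.0273). On ULA day 21 it was 13.0 CPM and on day 34 it was 77.7 CPM (log2 fold change 2.45 ± 0.40, SE; edgeR adjusted p = 0.0099). With OA it went from 49.04 CPM to 0.32 CPM, in the libraries in which CHAC1 and TRIB3 rose. In the OA experiment NUPR1 was among the 10 leading genes by fold of the main mesenchymal-like cluster, number 9.

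FGF21, a liver hormone that ATF4 is known to induce, had a mean of 0.17 CPM on ULA day 21 and 0 on day 34, where it was called lower (edgeR adjusted p = 0.0158). In the TGFB1, PA and OA experiments it averaged at most 0.011 CPM and was not tested. SLC7A11, the cystine importer whose product supplies glutathione, had a mean of 57.8 CPM on ULA day 21 and 16.9 CPM on day 34. There it fell together with CHAC1, while with OA both rose (5.52 CPM in the control and 28.2 CPM with OA).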
